A study of Mus musculus with 48 samples.

Results

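Cohesin occupancy in mouse embryonic stem cells that carry the R377H form of CTCF was compared with occupancy in cells that carry wild-type (WT) CTCF, through peaks of the cohesin subunit SMC3. The comparison uses 4 of the 48 samples of the series, 2 replicates of R377H and 2 of WT, and each pair was deposited as 1 pooled peak list. The R377H list holds 120444 SMC3 peaks and the WT list 71962. A WT peak was called kept when an R377H peak overlapped it by at least 1 bp, and lost otherwise. An R377H peak with no overlapping WT peak was called gained. Each peak was put in 1 of 3 classes: at a FLAG peak of the WT transgene, else at a peak of the CTCF antibody in WT cells, else away from both.

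CTCF is a zinc-finger protein that binds DNA, and cohesin is a ring of SMC1, SMC3, RAD21 and a STAG subunit that extrudes chromatin loops. Cohesin stops and accumulates where CTCF is bound in the right orientation, so most strong cohesin peaks of a cell lie on CTCF sites. Cohesin is also found at active promoters and enhancers, where its loader NIPBL is enriched, and such sites need no CTCF. R377H replaces an arginine of the CTCF zinc fingers by histidine.

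Both groups were E14Tg2a cells of strain 129/Ola, with an auxin degron on endogenous CTCF and a doxycycline-inducible, FLAG-tagged Ctcf transgene. R377H cells carried the mutant transgene and WT cells the wild-type one, and both grew without feeder cells in medium with LIF and 2 kinase inhibitors. Both received 500 µM indole-3-acetic acid (IAA), which triggers loss of degron-tagged CTCF, and 1 µg/ml doxycycline for 2 days. SMC3 was mapped by ChIPmentation, in which a transposase tags antibody-bound chromatin. The labels speak of clones derived from E14Tg2a but do not say how many stand behind a genotype, so R377H and the clone that carries it cannot be told apart. Coordinates are those of the mm10 build that the submitters name, and sites are called by the protein-coding gene closest to them. How much endogenous CTCF remained was not measured in these files, and the embryonic stem cell identity cannot be checked by marker expression in peak lists. Because replicates were pooled, no spread between replicates and no p-value can be given. Intervals in parentheses are 95% Wilson intervals over peaks and cover counting error only.

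The peak names of both SMC3 lists carry the same tag, b1, whose meaning is not stated. The R377H FLAG list names other library codes than the R377H SMC3 list does, whereas the WT FLAG and WT SMC3 lists share theirs. The R377H SMC3 list covered 41.0 Mb with a median peak width of 233 bp, and the WT list 22.4 Mb with 222 bp. Depth per library is unknown and can by itself change the length of a list. Over 3 long stretches of the genome the lists stood apart from their relation elsewhere, so results that rest on them are also given without them. These stretches are the whole of chromosome 11, distal chromosome 17 (SMC3 peaks from chr17:72276842-94883996) and distal chromosome 5 (chr5:148026350-151732465), with bounds chosen after the counts were seen.

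A few promoter sequences are printed as examples of the classes. They run from 250 bases before to 50 bases after an annotated start, are given on the gene's strand, and come from RefSeq on GRCm38.p6, the assembly that mm10 names. Pdzd9 (chr7:120670201-120670500, minus strand) and Radil (chr5:142551049-142551348, minus strand) are the strongest WT SMC3 peaks at promoters that kept SMC3 and had FLAG of both transgenes and a motif match. Klhdc8b (chr9:108452752-108453051, minus strand) and Ptpru (chr4:131838229-131838528, minus strand) are the strongest WT SMC3 peaks at WT FLAG promoters where both SMC3 and FLAG were missing in R377H. Nap1l1 (chr10:111472977-111473276, plus strand) and Klhl5 (chr5:65130981-65131280, plus strand) hold the strongest promoter peaks gained in R377H off chromosome 11, at a CTCF antibody peak and away from both. Capitals mark the CTCF core searched on both strands, which reads CCA, any 2 bases, AG, any 2 bases, GGC.
Pdzd9: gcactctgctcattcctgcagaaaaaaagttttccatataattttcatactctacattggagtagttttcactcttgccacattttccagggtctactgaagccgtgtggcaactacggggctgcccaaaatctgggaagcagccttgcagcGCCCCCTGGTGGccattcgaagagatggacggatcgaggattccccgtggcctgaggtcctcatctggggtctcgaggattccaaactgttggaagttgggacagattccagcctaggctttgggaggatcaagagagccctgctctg
Radil: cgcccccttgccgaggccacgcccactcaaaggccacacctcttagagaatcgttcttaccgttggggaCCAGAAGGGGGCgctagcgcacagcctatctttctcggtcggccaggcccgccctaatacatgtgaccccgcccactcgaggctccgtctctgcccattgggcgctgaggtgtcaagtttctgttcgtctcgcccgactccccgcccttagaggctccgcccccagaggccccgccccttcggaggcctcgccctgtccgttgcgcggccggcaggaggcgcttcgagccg
Klhdc8b: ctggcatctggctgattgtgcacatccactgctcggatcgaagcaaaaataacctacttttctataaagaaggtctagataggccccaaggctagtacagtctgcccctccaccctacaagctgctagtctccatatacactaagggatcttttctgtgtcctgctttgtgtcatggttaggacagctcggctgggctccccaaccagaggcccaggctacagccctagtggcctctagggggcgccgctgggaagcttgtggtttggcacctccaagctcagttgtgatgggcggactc
Ptpru: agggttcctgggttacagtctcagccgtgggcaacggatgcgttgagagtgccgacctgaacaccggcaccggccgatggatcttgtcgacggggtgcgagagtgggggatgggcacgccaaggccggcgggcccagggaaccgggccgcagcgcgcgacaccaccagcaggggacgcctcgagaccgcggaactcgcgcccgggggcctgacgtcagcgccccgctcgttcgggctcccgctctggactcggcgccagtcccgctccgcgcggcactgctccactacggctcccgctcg
Nap1l1: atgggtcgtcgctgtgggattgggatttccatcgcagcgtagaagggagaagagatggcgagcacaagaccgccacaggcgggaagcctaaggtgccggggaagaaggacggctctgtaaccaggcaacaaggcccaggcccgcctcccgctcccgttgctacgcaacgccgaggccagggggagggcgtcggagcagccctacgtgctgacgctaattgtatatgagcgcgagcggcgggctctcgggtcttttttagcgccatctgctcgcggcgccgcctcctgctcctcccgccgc
Klhl5: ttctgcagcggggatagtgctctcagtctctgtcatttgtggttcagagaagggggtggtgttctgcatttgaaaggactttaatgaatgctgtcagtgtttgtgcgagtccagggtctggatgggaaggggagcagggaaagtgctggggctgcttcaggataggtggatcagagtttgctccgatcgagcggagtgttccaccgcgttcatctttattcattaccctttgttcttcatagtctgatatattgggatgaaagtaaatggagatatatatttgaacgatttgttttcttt

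The core is in 797 of 32851 promoters, 2.43%. Among promoters at WT FLAG peaks it is in 21.3% of 731, at other CTCF antibody peaks in 4.31% of 6281, and away from both in 1.43% of 25839. Promoters at WT FLAG peaks with SMC3 in both R377H and WT held it in 22.8% of 615 (19.6 to 26.2), and those with SMC3 in WT only in 20.5% of 39 (10.8 to 35.5). The intervals overlap, so a difference between kept and lost promoters was not detectable at these numbers. Promoters away from both with SMC3 in R377H only held the core in 1.65% of 3220 (1.26 to 2.15). The Klhdc8b, Ptpru, Nap1l1 and Klhl5 windows hold no exact match to these letters. Near matches, such as the Klhdc8b, Ptpru and Nap1l1 windows hold, were not searched, so a lack of CTCF motif does not follow. Pdzd9 and Radil were chosen for holding one, so their match is no result.

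R377H cells kept 49669 of 71962 WT SMC3 peaks, 69.0% (68.7 to 69.4), and 22293 were lost, a share of 31.0% (32.3% without chromosome 11). At WT FLAG peaks 11294 of 12363 were kept, 91.4% (90.8 to 91.8). At other CTCF antibody peaks 14830 of 22226 were kept, 66.7% (66.1 to 67.3), and away from both 23545 of 37373, 63.0% (62.5 to 63.5). Cohesin at WT FLAG peaks was therefore listed again more often than cohesin elsewhere. These shares depend on what counts as overlap: when a reciprocal overlap of 50% was required, 38.9% of all WT peaks were kept, 73.1% at WT FLAG peaks, 34.3% at other CTCF antibody peaks and 30.4% away from both. Outside the 3 stretches the shares were 90.7% at WT FLAG peaks, 65.8% at other CTCF antibody peaks and 62.2% away from both.

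The classes also differ in peak strength, and the share kept followed strength in each of them. Strength is the value of the authors' peak caller, compared here only within a list. Kept WT peaks had a median value of 3.34 and a median width of 270 bp, and lost ones 2.83 and 167 bp. In the weakest decile of WT SMC3 peaks R377H kept 56.9% at WT FLAG peaks, 55.1% at other CTCF antibody peaks and 50.1% away from both. In the ninth decile the shares were 89.8%, 87.0% and 95.4%, in the same order of classes. In the strongest decile they were 99.1%, 95.3% and 100%, where the last is 64 of 64 peaks. At like strength the order of the classes therefore did not hold. Peaks at WT FLAG sites were kept most often in each of the 6 weaker deciles, with mostly overlapping intervals. Peaks away from both were kept most often in the 3 deciles above those and also, at 64 of 64, in the strongest. Of the strongest decile, 6812 of 7197 peaks lay at WT FLAG peaks, and of the weakest 102 of 7197.

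**Figure D1:**
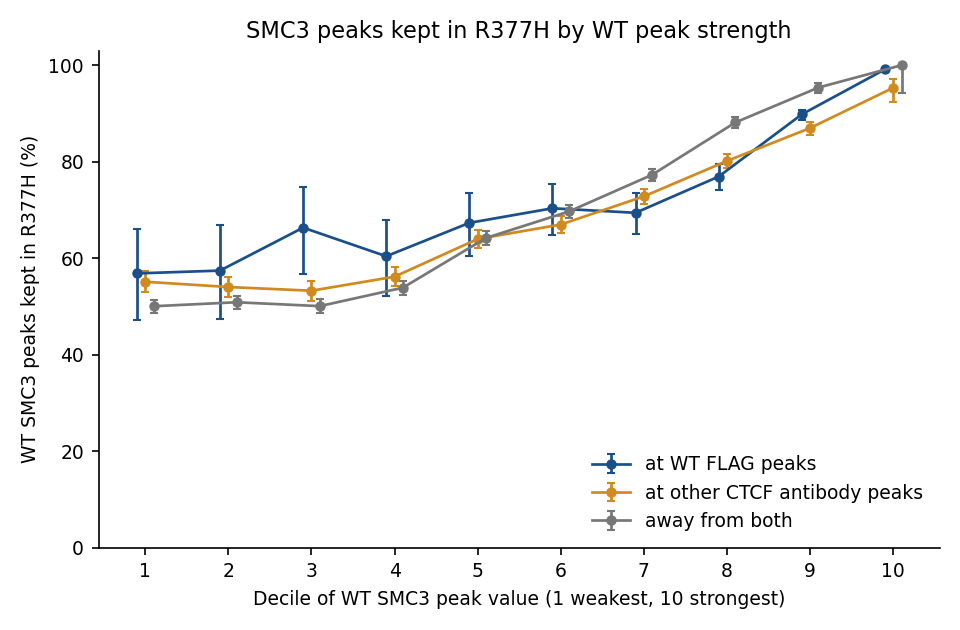
Share of WT SMC3 peaks kept in R377H (%) against the decile of their WT peak value, for the 3 classes; bars are 95% Wilson intervals over peaks. The 3 classes stood at 56.9%, 55.1% and 50.1% in the weakest decile and at 99.1%, 95.3% and 100% in the strongest.

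Many lost peaks had an R377H SMC3 peak close by. The median distance from a lost WT peak to the nearest R377H SMC3 peak was 1766 bp, and 40.5% lay within 1 kb of one. Lost peaks at WT FLAG sites stood farther off, at a median of 11254 bp, with 15.8% within 1 kb. The median was 902 bp at other CTCF antibody peaks, and away from both it was 2381 bp.

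R377H cells had 73076 gained SMC3 peaks, 60.7% of their list (60.4 to 60.9), and 56.0% without chromosome 11. Nearly all gains lay outside WT FLAG peaks. They were 75.2% (74.9 to 75.5) away from both, 24.0% (23.7 to 24.3) at other CTCF antibody peaks and 0.794% (0.732 to 0.861) at WT FLAG peaks. Within the classes, 580 of 11895 R377H peaks at WT FLAG sites were gained, 4.88%, against 54.0% at other CTCF antibody peaks and 72.2% away from both. Gained peaks were weak and narrow, with a median value of 2.92 and width of 190 bp, against 3.76 and 361 bp for R377H peaks shared with WT. In the weakest decile of R377H peaks 16.2% were shared with WT, and in the strongest 95.3%. An R377H FLAG peak was present at 1228 gained peaks, 1.68% (1.59 to 1.78), and at 9.56% of all R377H SMC3 peaks.

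Whether the mutant protein itself was mapped at a site went with whether cohesin was kept there. Of WT SMC3 peaks at WT FLAG sites, R377H kept 9367 of 9830 where the site had an R377H FLAG peak, 95.3% (94.9 to 95.7). It kept 1927 of 2533 where it had none, 76.1% (74.4 to 77.7). The difference is 19.2 percentage points (17.5 to 20.9). Kept WT SMC3 peaks had a median value of 7.40 with R377H FLAG and 5.61 without it. Lost ones had 3.74 with R377H FLAG and 3.92 without it, so the kept peaks alone were stronger where R377H FLAG was present. Standardised over deciles of WT SMC3 value the difference was 10.2 points, and over deciles of WT FLAG value it was 16.6 points.

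The gap was widest at weak cohesin peaks. In the weakest quintile of WT SMC3 value, 79.4% (77.4 to 81.4) were kept with R377H FLAG and 56.7% (53.4 to 59.9) without. In the second quintile the shares were 93.7% and 77.4%, and in the third 98.8% and 89.5%. In the fourth 2166 of 2167 were kept with R377H FLAG and 294 of 305 without, and in the strongest every peak was kept, 2338 with and 135 without R377H FLAG. In each of the lower 4 quintiles the intervals of the 2 kinds of site did not overlap.

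**Figure D2:**
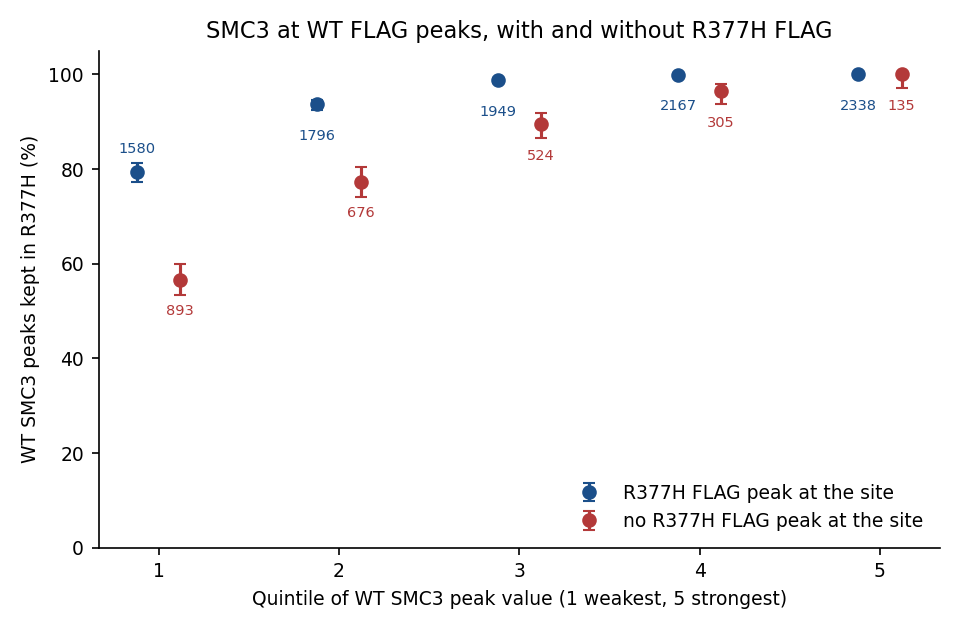
Share of WT SMC3 peaks at WT FLAG sites kept in R377H (%) against the quintile of WT SMC3 value, for sites with and without an R377H FLAG peak; bars are 95% Wilson intervals and small figures the number of peaks. Sites with R377H FLAG lie higher in the lower 4 quintiles (79.4% against 56.7% in the weakest), and both reach 100% in the strongest.

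Seen from the 15392 WT FLAG peaks, 74.2% had SMC3 in both R377H and WT, 3.90% in R377H only, 7.05% in WT only and 14.9% in neither. Where R377H FLAG was missing, 45.2% of 4334 WT FLAG peaks still had SMC3 in both, 2.47% had it in R377H only and 14.8% in WT only. Where it was present, 85.5% of 11058 had SMC3 in both, 4.46% in R377H only and 4.02% in WT only. The order of the last 2 values rests on chromosome 11. Counted over the 10936 R377H FLAG peaks in the WT FLAG list, SMC3 was in R377H only at 4.36% and in WT only at 3.96%. Without chromosome 11 the shares were 3.91% in R377H only and 4.31% in WT only, and on chromosome 11 they were 9.17% and 0.316%. R377H FLAG peaks outside the WT FLAG list carried cohesin less often than those in it, of which 90.3% had SMC3 in R377H. Of 4036 at CTCF antibody peaks 37.6% had SMC3 in R377H and 29.1% in WT. Of 1501 outside both, 8.59% had it in R377H and 3.93% in WT. Without chromosome 11 the first pair was 34.8% (33.1 to 36.4) in R377H and 31.7% (30.2 to 33.4) in WT, of 3223 peaks, and the second 5.28% in R377H and 3.72% in WT, of 834. The intervals of both pairs then overlapped, but each pair counts the same peaks, so this overlap does not settle a difference. Of the 3223 peaks, 11.9% (10.8 to 13.1) had SMC3 in R377H only and 8.90% (7.97 to 9.94) in WT only. Of the 834, 3.36% (2.33 to 4.81) had it in R377H only and 1.80% (1.09 to 2.95) in WT only.

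Other CTCF antibody peaks fall into those seen in treated WT cells and those seen only in untreated WT cells. WT SMC3 peaks at antibody peaks of both treated and untreated cells were kept at 64.7% (64.0 to 65.5), and those at antibody peaks of untreated cells only at 72.2% (71.1 to 73.3). Where other CTCF antibody peaks had R377H FLAG 75.9% of 1215 were kept, against 66.2% of 21011 without. Away from both, 41 of 58 WT SMC3 peaks with R377H FLAG were kept, 70.7% (58.0 to 80.8), against 63.0% without it. Without chromosome 11 the direction turned, with 16 of 30 kept with R377H FLAG, 53.3% (36.1 to 69.8), against 61.8% without it, and in both cases the intervals overlapped.

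By location, cohesin near gene ends was kept most often. A peak was put at a gene end when it came within 1 kb of the first or last base of a gene span. Since the spans carry no strand, starts and stops are not separated within this location class, nor exon from intron. Promoters, taken from annotated starts, are counted on their own further below. Away from both, 74.6% (73.6 to 75.6) were kept at gene ends, 59.1% (58.4 to 59.8) in gene bodies and 61.6% (60.7 to 62.4) between genes. At other CTCF antibody peaks the shares were 78.9%, 62.4% and 63.6% in that order, and at WT FLAG peaks 94.1%, 90.8% and 90.8%. With gene ends of 2 kb the shares there were 71.6% away from both, 76.4% at other CTCF antibody peaks and 94.0% at WT FLAG peaks. Standardised over deciles of strength, gene ends stayed highest in each class, at 73.7% away from both, 78.3% at other CTCF antibody peaks and 93.8% at WT FLAG peaks. Gene ends held 13.9% (13.5 to 14.4) of lost peaks and 23.4% (23.1 to 23.8) of kept ones, against 20.5% of all WT peaks. They held 20.7% (20.4 to 21.0) of gained peaks, against 21.9% of all R377H peaks.

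**Figure D3:**
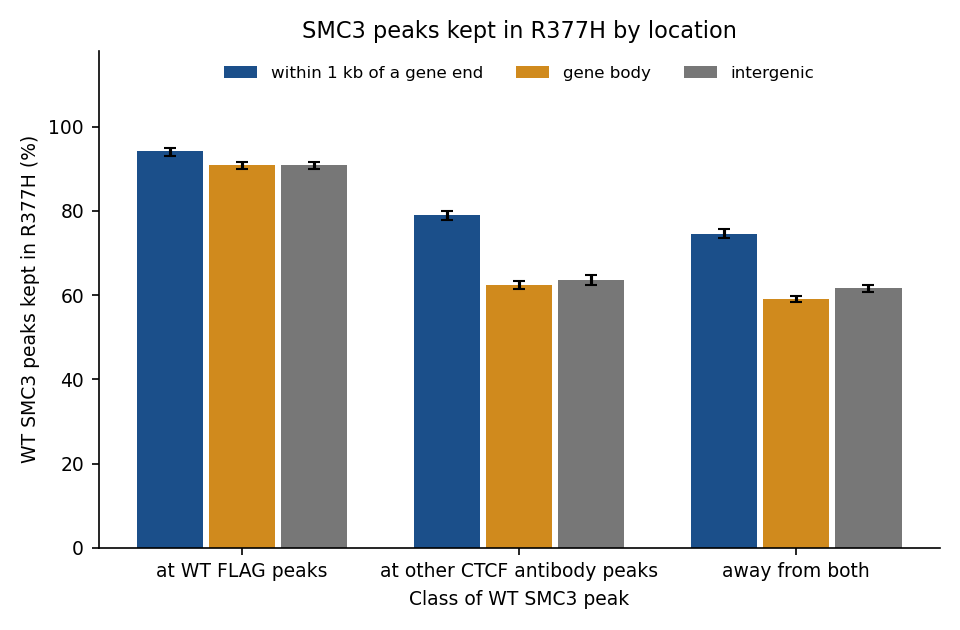
Share of WT SMC3 peaks kept in R377H (%) by class and by location (within 1 kb of a gene end, gene body, between genes); bars start at 0 and error bars are 95% Wilson intervals. Gene ends are highest in each class, by the widest margin at other CTCF antibody peaks (78.9% against 62.4% in gene bodies).

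Promoters alone show the same asymmetry between the lists. Of 32851 promoter windows, 4283 had SMC3 in both R377H and WT, 4692 in R377H only, 636 in WT only and 23240 in neither. At the 731 promoters with a WT FLAG peak the counts were 615, 34, 39 and 43. On chromosome 11, 872 of 2289 promoters had SMC3 in R377H only and 2 in WT only.

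Chromosome 11 held an outsized part of the R377H list. It had 19227 R377H SMC3 peaks, 15.96% of that list, and 3458 WT peaks, 4.81% of the WT list. The ratio of R377H to WT peak number was 5.56 there and between 1.27 and 1.84 on the other 19 chromosomes with WT peaks. The excess sat in the classes without a WT FLAG peak. The ratio was 9.49 away from both, 4.19 at other CTCF antibody peaks and 1.09 at WT FLAG peaks. It ran along the whole chromosome: in its 25 windows of 5 Mb the ratio lay between 3.77 and 9.09, against a median of 1.44 in 426 windows elsewhere. On chromosome 11, 94.8% of WT SMC3 peaks were kept and 85.2% of R377H peaks were gained, which makes 22.4% of all gained peaks. R377H FLAG was also dense there, with 14.7% of its peaks, against 7.11% of WT FLAG peaks and 7.20% of CTCF antibody peaks in treated WT cells. In the SMC3 lists of the 8 other mutants chromosome 11 held between 4.47% (H455R) and 12.04% (K365T), and 8.09% in R448Q and 5.37% in R377C. Peak lists carry no measure of input DNA, so DNA copy number was not tested.

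**Figure D4:**
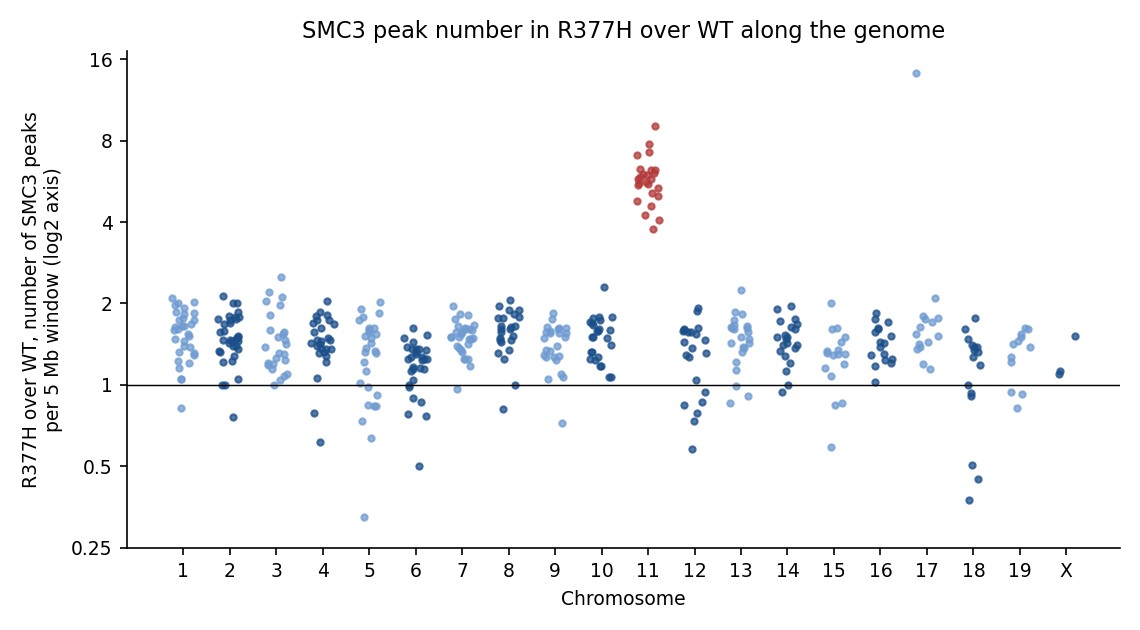
Number of SMC3 peaks in R377H over that in WT in windows of 5 Mb (log2 axis), by chromosome, for windows with at least 20 WT peaks; each point is a window. Chromosome 11, in red, lies between 3.77 and 9.09, and a single window of chromosome 17 reaches 14.2.

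The distal stretches of chromosomes 17 and 5 differed in opposite directions. On distal chromosome 17, R377H had 986 SMC3 peaks and WT 64, and all 64 were kept. Gains there were 764 of 769 R377H peaks away from both and 6 of 52 at WT FLAG peaks. That stretch held 0.819% of the R377H list and between 0.676% and 0.843% of the lists of 7 of the 8 other mutants, but 0.121% of the H455R list and 0.0889% of the WT list. WT FLAG was also sparse there, at 0.351% of its peaks, against 1.17% of R377H FLAG peaks. The WT CTCF antibody peaks were not as sparse, at 0.470% in treated and 0.441% in untreated cells. On distal chromosome 5, R377H had 454 SMC3 peaks and WT 850, and 318 of the 850 were kept, 37.4% (34.2 to 40.7). There the R377H list had 0.377% of its peaks and the other 8 mutants between 0.320% and 0.542%, against 1.18% in WT. At the 90 WT SMC3 peaks on WT FLAG sites in that stretch 82 were kept. In both stretches the WT list is the one that stands apart from most others, on chromosome 17 together with H455R.

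**Figure D5:**
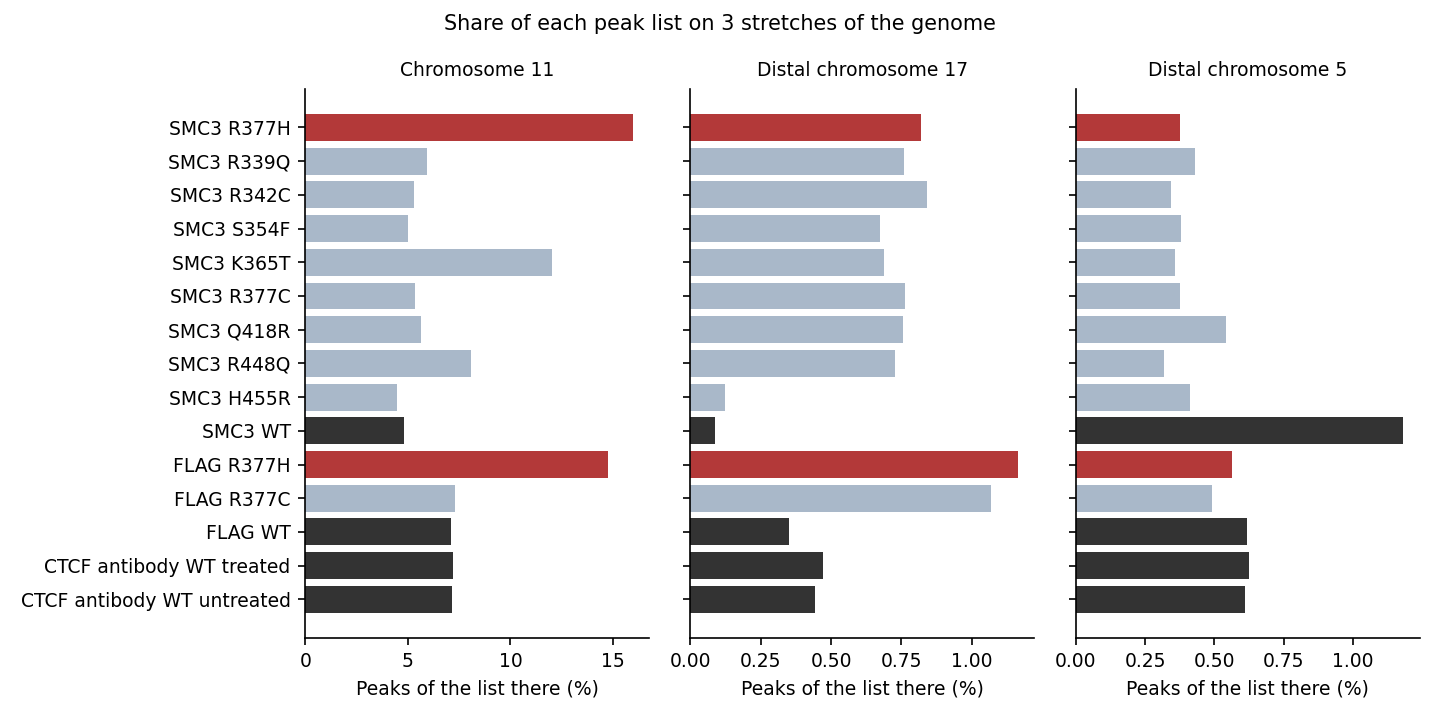
Share of each peak list (%) on chromosome 11, distal chromosome 17 and distal chromosome 5, with R377H lists in red, WT lists in black and other mutants in grey. R377H is highest on chromosome 11 (15.96% of SMC3 peaks, with K365T next at 12.04%), and WT SMC3 stands apart on distal chromosome 17 (0.0889%) and distal chromosome 5 (1.18%).

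Of the 1069 lost WT SMC3 peaks at WT FLAG sites, 606 lacked R377H FLAG. Among lost peaks with no R377H SMC3 peak within 1 kb, the 6 strongest at WT FLAG sites all lacked R377H FLAG too. The strongest 2 lay beside St3gal1, which encodes a sialyltransferase, at chr15:67101165-67101872 and chr15:67098783-67099306, with WT values of 9.36 and 8.95 and ranks 3302 and 3645 in the WT list. The nearest R377H SMC3 peaks were 54492 and 52110 bp away. SMC3 was present at both in R342C, S354F, K365T, R377C and R448Q and missing in R339Q, Q418R and H455R. A further site lay 16649 bp from Hpcal1 (chr12:17808593-17808943, value 8.82), which encodes a neuronal calcium sensor, with SMC3 in 4 other mutants. One within Pde4d (chr13:109343499-109343957, value 8.29), a cAMP phosphodiesterase gene, had SMC3 in 7 others and lacked it in Q418R alone. One near Mtpap, the mitochondrial poly(A) polymerase gene, had SMC3 in 3 others. For the sixth the closest protein-coding gene, Gm9733, was 100318 bp away. All 6 had CTCF antibody peaks in treated and untreated WT cells. An antibody peak in treated cells was common at WT FLAG sites without R377H FLAG. It was present at 590 of the 606 lost and 1807 of the 1927 kept SMC3 peaks there. The strongest site lost although R377H FLAG was there ranked 4669 in the WT list, 79537 bp from C1qtnf3 (chr15:10872448-10872582, value 7.89). Within Stim1 (chr7:102267084-102267351), which encodes a calcium sensor of the endoplasmic reticulum, the lost peak had an R377H SMC3 peak 336 bp away.

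The strongest kept sites are described next. The peak with rank 1 lay 60563 bp from Sestd1 (chr2:77341190-77342747, value 44.0), and those with ranks 2 and 3 near Lrrc74a (chr12:86795129-86796870, value 35.6) and within Pink1 (chr4:138319492-138320797, value 33.1), a mitochondrial kinase gene. Each had R377H FLAG and SMC3 in all 8 other mutants. The strongest peaks kept without R377H FLAG ranked 66 and 217, 33214 bp from Sdr9c7 (chr10:127944975-127946058, value 23.5) and beside Csrp1 (chr1:135752688-135753251, value 19.6). These too had SMC3 in all 8 others. Since these sites were chosen as the strongest among kept peaks, that they were kept is no result.

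Away from WT FLAG sites the strongest losses were weaker. At other CTCF antibody peaks the strongest lay within Medag (chr5:149417160-149417838, value 7.89), inside the distal chromosome 5 stretch, and then within Zfyve27 (chr19:42190550-42190819, value 7.08), which encodes the endosomal protein protrudin, with SMC3 in 4 other mutants. Sites within Pgpep1 (value 6.57), a peptidase gene, and Sgms1 (value 6.55), which encodes a sphingomyelin synthase, had SMC3 in 6 and 5 others. Away from both, the strongest lay nearest to Mill1 (chr7:18214584-18215068, value 5.88) and Tle3 (chr9:61467404-61467673, value 5.35), a Groucho co-repressor gene, and within Traip (value 5.24), a ubiquitin ligase gene. SMC3 was present at them in 6, 3 and 2 other mutants. The 5 windows of 100 kb with most losses all lay on chromosome 5 in its distal stretch. The window over Rxfp2 held 28 R377H and 48 WT peaks, that over Kl, the klotho gene, 5 and 31, and that over Fry 18 and 39.

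Of the 18 strongest gained sites, 6 per class, 10 lay on chromosome 11 and 5 on distal chromosome 17. The strongest at a WT FLAG peak lay beside Alk on chromosome 17 (chr17:72606033-72606544, value 11.9), a receptor tyrosine kinase gene, with R377H FLAG and with SMC3 in all 8 other mutants. On the same stretch Epas1 (chr17:86832545-86833167, value 6.86), which encodes a hypoxia-inducible factor, and the region near Lclat1 (chr17:73262522-73263582, value 7.605) also had SMC3 in all 8 others. On chromosome 11 gains lay within Ppp1r9b (chr11:95001115-95001422, value 8.46), the spinophilin gene, near Acaca, the acetyl-CoA carboxylase gene (value 7.51), and within Ncor1 (value 7.49), a nuclear co-repressor gene. SMC3 was present at these in 7, 4 and 7 other mutants. The 5 windows of 100 kb with most gains all lay on chromosome 11. The window over Pgs1 and Dnah17 held 84 R377H and 15 WT peaks, and that over Crk, Ywhae and Doc2b 67 and 9. Off chromosome 11 the highest was a window of chromosome 13 over Bhmt, Bhmt2 and Dmgdh, with 56 R377H and 10 WT peaks.

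Outside the 3 stretches the strongest gains were chosen by the same rule after values were seen. At WT FLAG peaks they lay within Ripor3 (chr2:168004497-168004653, value 7.24), with SMC3 in 3 other mutants, and beside Pck1 (chr2:173159370-173159811, value 6.38), which encodes an enzyme of gluconeogenesis, with SMC3 in 7. Both had R377H FLAG. At other CTCF antibody peaks one lay within Zfp687 (chr3:94997028-94997562, value 6.15), with R377H FLAG and with SMC3 in all 8 others. One near Gfi1b, a blood transcriptional repressor gene (value 6.12), had R377H FLAG and SMC3 in 5. Away from both, gains at a gene end of Klhl5 (value 7.38) and within Arid5b (chr10:68249558-68250106, value 6.54) had SMC3 in 6 and 5 others, and one beside Ifitm6 (value 6.54) in R339Q and R377C only. Each of these places carried SMC3 in at least 2 other mutants, and all 9 mutants were read against the same WT list.

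Around pluripotency genes, which keep embryonic stem cells undifferentiated, 274 of 311 WT SMC3 peaks within 10 kb were kept, 88.1% (84.0 to 91.2). The share was 69.0% of WT peaks over the genome and 78.9% of those within 1 kb of any gene end. Peaks at gene ends were thus kept more often in general, but those in gene bodies were kept at 65.3%. The 10 kb windows take in whole gene spans, so neither share is a like comparison. Esrrb alone held 56 of the 311. Pou5f1 kept 13 of 13, Nanog 17 of 17, Zfp42 15 of 15, Tbx3 22 of 22 and Esrrb 53 of 56, while Sox2 kept 7 of 10, Lifr 19 of 27 and Prdm14 7 of 11. Stat3, on chromosome 11, had 14 R377H peaks and no WT peak, all 14 gained. Ribosomal protein genes, which every growing cell uses, kept 227 of 255, 89.0% (84.6 to 92.3). Within 50 kb the share was 82.1% for each of these 2 lists, below both intervals and still above 69.0%. The median WT SMC3 value was 3.10 near pluripotency genes and 3.21 near ribosomal protein genes, against 3.16 over all WT peaks.

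Genes of other lineages and of germ cells had fewer peaks near them, and the interval of the kept share of each of these 4 lists includes the 69.0% of all WT peaks. Around mesoderm and endoderm genes 21 of 37 were kept, 56.8% (40.9 to 71.3), with Gata6 at 2 of 8 and Gata4 at 2 of 5. The strongest loss near a listed gene of that kind was within Gata4 (chr14:63207107-63207393, value 5.34), at a WT FLAG peak without R377H FLAG. Trophoblast genes kept 59 of 83, 71.1%, with Tead4 at 24 of 30, Gata2 at 7 of 15 and Gata3 at 2 of 5. Neural genes kept 21 of 29, 72.4%, with Otx2 at 8 of 8, and germline genes 13 of 20, 65.0%. Hox genes kept 51 of 63, 81.0% (69.6 to 88.8), and 78.2% (65.6 to 87.1) outside the 3 stretches, where all WT peaks were kept at 68.1%. Among the kept were 10 of 10 near Hoxc6 and 10 of 15 near Hoxa3.

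For genes at loci known for CTCF, and for genes of cohesin, the interval of the share kept over the whole genome includes the 69.0% of all WT peaks. Clustered protocadherin genes, whose promoter choice involves CTCF and cohesin, kept 39 of 51, 76.5% (63.2 to 86.0), and 12 of 15 at WT FLAG peaks. Imprinted genes kept 57 of 83, 68.7% (58.1 to 77.6), and 13 of 13 at WT FLAG peaks, with Mest at 5 of 5, Kcnq1 at 3 of 6 and Plagl1 at 4 of 8. The X inactivation centre had 4 WT peaks, of which the 3 near Tsix were kept and the 1 near Ftx was lost. Genes of cohesin, its regulators and Ctcf kept 74 of 107, 69.2% (59.9 to 77.1), and 62 of 79 outside the 3 stretches, 78.5% (68.2 to 86.1). Pds5b, a cohesin regulator on distal chromosome 5, lost 16 of 18. Rad21 kept 5 of 5 and Smc3 7 of 8, while Ctcf itself had 5 R377H peaks, all gained, and no WT peak. For the other lists the share kept outside the 3 stretches lay within the interval of the whole list.

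The gained share, 60.7% over all R377H peaks, was 53.6% (49.1 to 58.1) near pluripotency genes, 54.1% (49.4 to 58.7) near ribosomal protein genes and 29.6% (19.1 to 42.8) near protocadherins. Over all R377H peaks at gene ends it was 57.4%, inside the pluripotency and ribosomal protein intervals, and in gene bodies 63.8%. Without chromosome 11 the gene-end and gene-body shares were 53.6% and 58.6%. The gained share was 71.4% near germline genes, 70.0% near mesoderm and endoderm genes, 72.7% at the X inactivation centre and 63.9% near imprinted genes. It was 60.3% near Hox genes and near genes of cohesin and Ctcf, 51.8% near trophoblast genes and 51.0% near neural genes, and the interval of each of these 8 shares includes 60.7%. Outside the 3 stretches, where 55.8% of all R377H peaks were gained, the share was 52.2% (47.6 to 56.7) for pluripotency genes, 50.8% (45.8 to 55.7) for ribosomal protein genes and 49.4% (38.9 to 59.9) for Hox genes. The protocadherin share was the same there, 29.6%, with its interval wholly below 55.8%, while the ribosomal protein interval ends just below that value. The germline share was also the same, 71.4% (57.6 to 82.2), with its interval above 55.8%. The strongest gain near a Hox gene, within Hoxb8 (value 5.32), is on chromosome 11.

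The other 8 mutants were read against the same WT list, so their values are set side by side only. Of all WT SMC3 peaks R377H kept 69.0%, R448Q 77.8%, R342C 73.3%, R377C 60.7%, H455R 60.2%, K365T 57.8%, S354F 53.7%, R339Q 50.5% and Q418R 29.3%. The lists run from 42030 peaks (Q418R) to 153647 (R448Q), so length and genotype cannot be told apart in this order. When each list, WT included, was cut to its strongest 42030 peaks, R342C kept 65.9%, R448Q 64.2%, R377H 59.5% and K365T 55.8%. R377C then kept 55.4%, H455R 54.2%, S354F 53.5%, R339Q 47.1% and Q418R 41.9%. At WT FLAG peaks R377H kept 91.4% and R377C, the other substitution at the same arginine, 87.5% (86.9 to 88.1). At other CTCF antibody peaks the values were 66.7% in R377H and 61.0% in R377C, and away from both 63.0% and 51.6%. The R377C list is shorter, 100708 peaks, and its names carry the tags b1 and b2, so length and tag cannot be told apart from genotype there. With the strongest 42030 peaks of each list, WT included, the share kept at WT FLAG peaks was 86.1% in R377H and 82.2% in R377C. It was 49.6% in R377H and 48.7% in R377C at other CTCF antibody peaks, and 48.5% and 41.9% away from both. Read against each other without WT, 46.7% of R377H SMC3 peaks were found in R377C and 60.3% of R377C peaks in R377H. The R377H share was 89.8% at WT FLAG peaks, 53.9% at other CTCF antibody peaks and 36.9% away from both.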

How the data were processed

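The data are peak lists, 1 per group, each pooling 2 replicates. The build mm10 and the tools MACS2, Bowtie2, deepTools and Trim Galore are named, per the submitters' processing notes. Their versions and thresholds are not given in the sources at hand. The deposited lists give a position and a score per peak, made by the authors, whose exact measure is not stated. Numbers missing from the peak names (1.52% in R377H and 1.63% in WT) show a filter that is not described. Repeated FLAG rows for 1 interval were merged. The members, gene lists and site rule were chosen with earlier results of these data known.

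Overlap was computed in Python 3.11.15 with numpy 2.4.6 and pandas 2.3.3, tested on simulated data and checked against bedtools 2.31.1. Gene positions are 34610 RefSeq spans without strand. Of 295 listed genes 293 matched, and Nespas and Linx did not. Named sites are the strongest lost or gained peaks of each class with no peak of the other list within 1 kb, the strongest kept or lost with and without R377H FLAG, the strongest near each gene list, and the 100 kb windows with most changes. Not all are printed. The 3 stretches, and sites named outside them, were chosen after values were seen. Standardised shares weight deciles of strength alike in the sets compared. The interval of the 19.2-point difference is a normal approximation. Depth per sample is unknown.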

Additional observations from a re-analysis of the deposited data

How the results depend on the processing

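The share of WT SMC3 peaks kept in R377H was 69.0% as reported. It was 38.9% when a 50% reciprocal overlap was required, 77.7% when peaks within 500 bp counted, 57.3% with the strongest 71962 peaks of both lists and 71.97% with the upper 50% of each list. In that order of settings it was 73.1%, 92.2%, 88.6% and 89.7% at WT FLAG peaks, 34.3%, 78.8%, 54.1% and 62.4% at other CTCF antibody peaks, and 30.4%, 72.2%, 48.9% and 64.2% away from both. WT FLAG peaks stayed highest under all these settings, and with the upper 50% the order of the other 2 classes turned round. The gained share of R377H peaks was 76.7%, 50.0%, 46.8% and 58.2%, and the share of gained peaks away from both was 70.1%, 77.8%, 72.5% and 69.1%. With the treated CTCF antibody list alone, 64.7% were kept at other CTCF antibody peaks, 64.3% away from both, and 84.0% of gains were away from both. The difference between WT FLAG sites with and without R377H FLAG was 22.0, 18.1, 24.4 and 24.1 points, and 10.2 and 16.6 points when standardised over deciles of WT SMC3 and WT FLAG value. Leaving out chromosome 11, an alternative chosen after seeing the data, gave 67.7% kept in all, 90.7% at WT FLAG peaks, 65.3% at other CTCF antibody peaks and 61.8% away from both, with 56.0% gained, 74.8% of gains away from both and a difference of 19.4 points. Leaving out all 3 stretches, chosen likewise, gave 68.1%, 90.7%, 65.8%, 62.2%, 55.8%, 74.7% and 19.6 points in that order. The cause of these shifts was not tested. No paired analysis was possible because each list pools its replicates, and for the same reason no replicate could be left out. Without counts or depth, a peak missing from a list cannot be told apart from one just under the authors' threshold.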

Other observations

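Near some gene lists the strongest lost WT SMC3 peak had an R377H SMC3 peak within 1 kb, and near others it had none. Over all lost WT peaks 40.5% had one that close, so the examples are no result about these genes. At Sall4, a pluripotency gene, the strongest lost WT peak (value 4.14) lay 157 bp from an R377H peak. Near Rps24, a ribosomal protein gene, it lay 171 bp from one, within the protocadherin gene Pcdhga10 185 bp, and within Tfap2c, a trophoblast transcription factor gene, 110 bp. For the remaining lists the distance ran from 3364 bp near Hoxa13 to 257419 bp within Hdac8. Within Hdac8, which encodes the deacetylase of SMC3, the lost peak (value 4.81) had FLAG of both R377H and WT, and the nearest R377H SMC3 peak was 257419 bp away. Among the 8 other mutants, SMC3 was present there in 7 and missing in H455R.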
